A study of Mus musculus with 62 samples.

Results

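The peaks described here are the m6A peaks of genes that carry exactly 1 peak in a table of m6A-seq of the mouse heart. The table lists 3181 peaks on coding regions under 1911 gene names. Of these genes, 1280 (67.0%) are named by 1 peak, 378 by 2 peaks, 217 by 3 to 5 peaks and 36 by more than 5, up to the 119 peaks of Ttn. A peak was taken as a member when each gene it names is named by no other peak. This gave 1245 members (39.1% of the peaks), 26 of which name more than 1 gene, and left 1936 other peaks. Another 8 peaks name a gene of their own together with a gene that has more peaks, and were counted with the others. The choice used only the number of peaks per gene and no read count. The peaks themselves had been called on these same 6 libraries, so that the level of a gene and its number of peaks are not separate measurements.

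Hearts came from 3 wild-type mice (Rpl3l+/+, WT) and 3 mice lacking Rpl3l (Rpl3l-/-, KO), male animals on the C57BL/6J background. The knockout is a deletion of exon 2 of Rpl3l, made by CRISPR-Cas9 in zygotes, which shifts the reading frame. It is a constitutive knockout. The age of the mice used for m6A-seq is not given in the sources used here, nor whether the RNA of these hearts also went into the other assays. RPL3L is the form of the large-subunit ribosomal protein RPL3 that is made in heart and skeletal muscle. Neither the table of peaks nor its members include Rpl3l, while Rpl3 has a single peak. For m6A-seq, heart RNA was precipitated with an antibody to m6A, cut on the beads and sequenced. RNA-seq and Ribo-seq (sequencing of the mRNA fragments that ribosomes cover) of heart from 4 mice per genotype served for comparison. In RNA-seq the Rpl3l transcript stood at 369 to 541 CPM (counts scaled to the same library total) in the WT and at 24.4 to 40.4 CPM in the KO hearts.

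N6-methyladenosine is the most common internal base modification of mRNA. It is placed during transcription by a complex around METTL3 and METTL14, often within the letters GGAC, is removed by FTO and ALKBH5, and is bound by readers of the YTH family, which affect splicing, translation and decay of the mRNA. In many tissues it is known to be dense in long internal exons and around stop codons. In the heart, m6A writers and erasers are known to matter for the growth and function of cardiomyocytes. The table covers coding regions, so peaks in the UTRs of the same mRNAs are not seen.

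Sequences are shown for 14 members, in order to let the short length and varied base content of these peaks be seen beside their levels. They are peaks that lie wholly in coding sequence, printed 5′ to 3′ on the RNA strand with mm10 coordinates and with each GGAC in capitals. The letters were read from the GENCODE M21 transcripts. The starts were read as counted from 0, and if the file counts from 1 each sequence lacks 1 base at the end with the lower coordinate. The first 6 are the wholly coding peaks among the 12 members with the highest TPM. TPM is the read count per base of peak, scaled by the authors to the same total in each library.
Casq2 (chr3:102145199-102145244, plus strand): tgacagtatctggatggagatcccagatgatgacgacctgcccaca
Jph2 (chr2:163397503-163397516, minus strand): gccgctttgacttt
Bccip (chr7:133709359-133709391, plus strand): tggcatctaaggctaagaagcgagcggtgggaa
Ptma (chr1:86529765-86529803, plus strand): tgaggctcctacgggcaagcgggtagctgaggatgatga
Hnrnpab (chr11:51602657-51602675, minus strand): gcccaaagaggtgtatcag
Glyr1 (chr16:5036421-5036459, minus strand): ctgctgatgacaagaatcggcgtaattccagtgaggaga
The next 4 are wholly coding peaks among the members with the smallest p-values for a difference between the genotypes, a pair higher in KO (Insr and Hjv) and a pair lower in KO (Tti2 and Rftn1).
Insr (chr8:3155847-3155889, minus strand): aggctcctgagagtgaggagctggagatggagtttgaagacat
Hjv (chr3:96528583-96528606, plus strand): aacttacatctctttccctcagat
Tti2 (chr8:31161852-31161864, plus strand): gaccacctttaac
Rftn1 (chr17:49994442-49994462, minus strand): ggaacgagatccacggcaggc
The last 4 are the peaks of zinc finger genes with the highest counts, all of which hold at least 1 GGAC.
Zfp651 (chr9:121763491-121763526, plus strand): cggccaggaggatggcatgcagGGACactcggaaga
Zfp830 (chr11:82765151-82765196, plus strand): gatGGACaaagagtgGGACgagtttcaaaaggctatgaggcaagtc
Zfp91 (chr19:12770183-12770237, minus strand): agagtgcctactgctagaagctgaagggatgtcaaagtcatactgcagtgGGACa
Zfp445 (chr9:122853596-122853672, minus strand): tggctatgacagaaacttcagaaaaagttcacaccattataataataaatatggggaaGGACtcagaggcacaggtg
None of the first 10 sequences holds the letters GGAC. The Zfp830 peak holds them at 2 places. The Jph2 peak is 14 nt long and lies in the first exon, 0.8% of the way along the coding sequence, whereas that of Insr lies in the last exon, 95.1% of the way along.

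Across members, the letters GGAC were about as frequent as in coding sequence in general. Of the 653 members that lie wholly in an exon, 89 (13.6%) held GGAC on the RNA strand. It was held by 12.7% of all windows of the same lengths. These windows cover the coding sequence of the genes of all peaks, members and others alike. The next shares cover the part of each peak in its exon, with 50 nt of transcript on either side. In 554 members a part past the 5′ end of the exon was thus not searched. With these flanks, 576 of 1243 members (46.3%) held GGAC, against 42.5% of windows of the same lengths. On the opposite strand the order was the other way round, with 28.5% of members against 32.4% of windows. The 5 letters GGACT, each of which includes a GGAC, stood in 13.9% of the members with their flanks and in 11.8% of windows. The other peaks gave 45.2% against 43.1% for GGAC with flanks. These shares are descriptions, since the windows differ from the peaks in their place within exons.

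**Figure D1:**
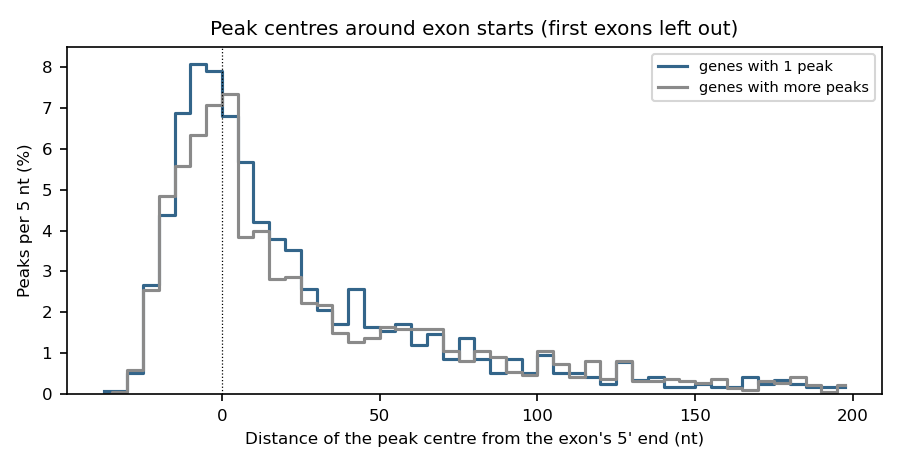
Distance of each peak's centre from the 5′ end of its exon in nt, as the percentage of peaks per 5 nt, for genes with 1 peak (blue) and genes with more peaks (grey). Peaks in first exons are left out and only distances up to 200 nt are drawn. Both curves are highest around the start of the exon, where 48.3% of the members have their centre within 20 nt.

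The members gathered at the starts of exons. Of all members, 599 (48.1%) lay wholly in coding sequence and 554 (44.5%) reached past the 5′ end of their exon. Nearly all of these 554 lay outside first exons and so reached into the upstream intron. Another 35 (2.81%) reached past the 3′ end of the exon, and 27 each reached into the 5′ UTR and the 3′ UTR. One member reached past both ends of its exon and 2 could not be placed on an exon. Among members outside first exons, the centre of the peak was within 20 nt of the start of the exon in 561 of 1162 (48.3%). Among members outside last exons, it was within 20 nt of the end of the exon in 39 of 924 (4.22%). A member that crossed the start of its exon had a median of 22 nt, 63.0% of its width, outside the exon. The crossing was about as frequent for genes on the plus strand (49.1% of 527) as on the minus strand (46.1% of 635). The peaks of genes with more peaks had the centre within 20 nt of the exon start in 42.1% of cases, and crossed that start in 35.7% on the plus and 45.2% on the minus strand. No test was made between the curves, since peaks of 1 gene are not independent.

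Along the coding sequence the members were spread evenly. In 5 stretches of equal length from start to end of the coding sequence the shares were 21.4%, 19.9%, 19.5%, 17.8% and 21.4% of 1243 members. In genes with more than 1 coding exon, 24.1% of members lay in the last coding exon, against 12.2% of the other peaks, whose genes have more exons. The centre was within 200 nt of the end of the coding sequence in 19.3% of members and 7.08% of the other peaks. A fixed 200 nt is a larger part of the members' coding sequences, whose median per peak was 1659 nt against 3744 nt. The last of the 5 stretches held 21.4% of members and 17.5% of the other peaks. The exon under the peak had a median length of 214 nt in members and 232 nt in the others, and it was longer than 400 nt in 35.9% and 37.2%.

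Genes with 1 peak were shorter than genes with more. The median coding length was 1668 nt (quartiles 1008 and 2745) over 1217 genes with 1 peak, 2277 nt over 375 genes with 2 peaks and 3873 nt over 249 genes with 3 or more, and the median number of coding exons rose from 11 to 13 and 19. These counts leave out peaks that name several genes. The plus strand held 45.4% of the genes with 1 peak and 33.7% of the genes with more than 1, while it holds 49.9% of the 21951 protein-coding genes of GENCODE M21. The part of the strand in what follows was not tested.

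**Figure D2:**
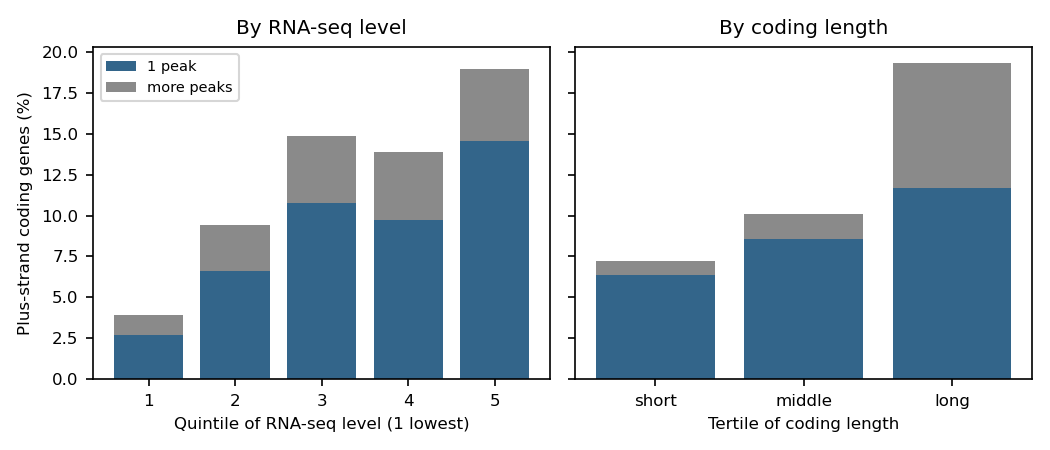
Percentage of plus-strand coding genes with 1 peak (blue) and with more peaks (grey, stacked on the blue), on the left by quintile of the RNA-seq level and on the right by tertile of the coding length. The blue share grows from 2.72% to 14.5% with the RNA-seq level and from 6.38% to 11.7% with the coding length.

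Single peaks were more frequent in genes with more mRNA. The RNA-seq table used here holds genes on the plus strand, and 6252 of its coding genes had a mean count of at least 10. Of these 556 (8.89%) carried 1 peak, 208 carried more and 5488 none. By quintile of the RNA-seq level (RPKM, CPM per kb of transcript), 1 peak was found in 2.72%, 6.64%, 10.8%, 9.76% and 14.5% of genes from the lowest to the highest. By tertile of the coding length, 1 peak was found in 6.38%, 8.59% and 11.7% of genes, and more than 1 peak in 0.863%, 1.49% and 7.63%. Among the genes with any peak, the share with a single peak was therefore 88.1% in the tertile of short and 60.5% in that of long coding sequences, but only moved between 69.4% and 76.8% over the quintiles of RNA-seq level. The median RNA-seq level was 9.75 RPKM for genes with 1 peak, 7.96 RPKM for genes with more and 4.24 RPKM for genes with none. The median log2 ratio of Ribo-seq to RNA-seq level was 0.50 for genes with 1 peak (SD 1.17, n = 546 genes), 0.50 for those with more and 0.58 for those with none.

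The libraries have to be described before the levels. The counts on the table summed to 205499 to 660116 per library, and those on the members to 28768 to 91105. WT replicate 1, the deepest library, stood apart. Over the 822 members with a mean count of at least 10, its log2 CPM correlated with that of the other libraries at r of 0.69 to 0.80, while all other pairs lay between 0.87 and 0.92 (across members, which are not replicates). In WT replicate 1, 212 of these members were more than 2-fold away from the mean of the other 5 libraries, against 25 to 65 in each of the others. Medians of the log2 fold change are given with and without it. In RNA-seq, each marker sum covers only the genes of its list on the plus strand. These were 6 of 11 heart muscle, 6 of 6 fibroblast, 2 of 6 endothelial and 5 of 6 skeletal muscle genes. They were 2 of 3 blood, 3 of 4 fat, 3 of 5 airway, 3 of 4 atrium and 3 of 4 macrophage genes. Sums of different lists are therefore not comparable. The heart muscle markers summed to 39986 to 56302 CPM over the 8 hearts. Fibroblast markers summed to 843 to 1437 CPM, endothelial markers to 109 to 170 CPM and skeletal muscle markers to 12.9 to 55.6 CPM. Blood markers summed to 2156 to 3561 CPM in WT and 2490 to 5422 CPM in KO hearts. Fat markers ranged from 8.89 to 832 CPM and airway markers from 0.286 to 1260 CPM over the 8 hearts. Atrium markers summed to 4047 to 6373 CPM and macrophage markers to 83.5 to 115 CPM. The 1 blood marker with a peak, the beta-globin gene Hbb-bs, is a member, at 7.16, 61.3 and 132 TPM in WT and 60.4, 101 and 260.4 TPM in KO. In the table of peaks, the skeletal muscle, fat, airway and atrium lists name no peak.

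A peak of a single-peak gene carried fewer reads than a peak of another gene in every library. The median TPM of members was 37.9, 42.1 and 44.2 in the WT and 40.0, 39.1 and 41.8 in the KO libraries, and that of the other peaks 76.2, 75.9 and 81.4 in the WT and 73.8, 75.6 and 74.4 in the KO libraries. Neither range reached into the other. The difference of the medians of log2(TPM + 1) was -0.99, -0.84 and -0.87 in WT and -0.87, -0.93 and -0.82 in KO, a mean of -0.89 (lower in 6 of 6 libraries, exact two-sided sign-flip test over 6 libraries, p = 0.03125, the smallest that 6 libraries allow). Members are set by the number of peaks called on these same libraries. The sign-flip p therefore measures only the agreement of the libraries and adds no support. The difference of the medians did not differ between the genotypes beyond the spread of the libraries (KO minus WT 0.03, exact two-sided permutation test, p = 0.6). Among members the mean count per library ran from 0 to 3464 with a median of 15.7, against a median of 30.2 for the others. A mean count of 10 was reached by 822 members (66.0%) and by 1516 other peaks (78.3%). Of the members, 153 had no read in at least 1 library and 5 had none in any. Peaks described as common to the 3 replicates of each genotype should hold reads there, and the reason for these zeros was not tested. A count of 0 in a library allows up to 3 counts, so that absence of a peak in single libraries was not detectable at this depth. Since the table holds no input library, the level of a peak does not separate methylation per molecule from the amount of the mRNA, and in heart tissue fewer cells of a type and less RNA per cell cannot be told apart.

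**Figure D3:**
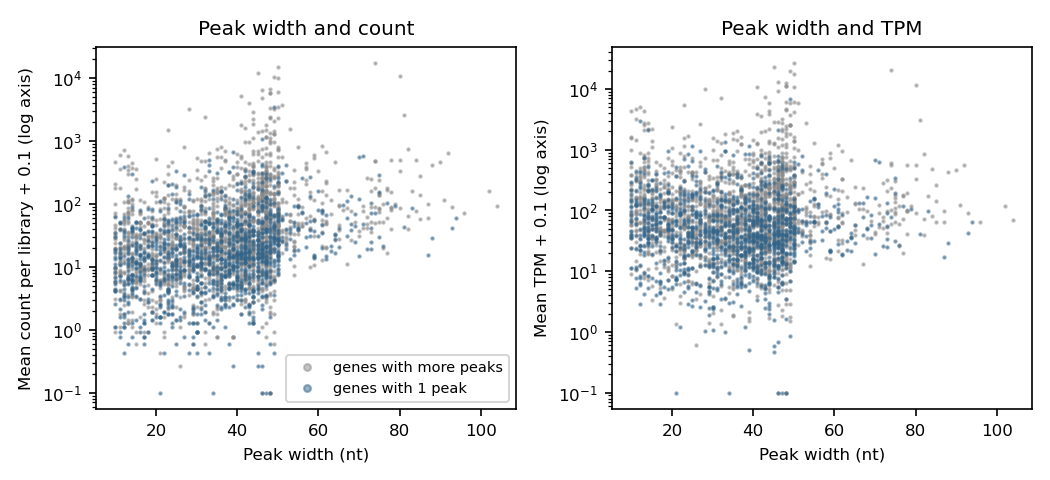
Mean count per library (left) and mean TPM (right) of each peak against its width in nt, both with 0.1 added and on log axes, for genes with 1 peak (blue) and genes with more peaks (grey). Counts grow with width while TPM, which is divided by the width, does not, and many peaks of both kinds are 46 to 50 nt wide.

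Peaks were narrow. Members were 10 to 94 nt wide with a median of 36 nt (quartiles 25 and 45), against a median of 39 nt for the other peaks. A width of 46 to 50 nt was found in 179 members (14.4%) and 393 other peaks (20.3%), and a width over 50 nt in 96 members (7.71%) and 174 others (8.99%). From the narrowest to the widest quartile of members the median count rose from 10.8 to 29.3 per library, while the median TPM was 53.9, 40.5, 33.7 and 48.4. Among members with a mean count of at least 10, width correlated with the mean count at a Spearman rho of 0.20 and with the mean TPM at -0.30, where TPM contains the width as its divisor. Narrow members lay inside exons more often. Of the narrowest quartile 66.9% were wholly coding, and of the widest quartile 35.6%. The narrowest members that reached the count minimum were 10 nt wide, in Fzd4 (a receptor for WNT and norrin ligands), Prkcsh (the beta subunit of glucosidase II) and Mios (a subunit of the GATOR2 complex). The Fzd4 peak had 39 to 104 reads per library but 220 to 997 TPM. The widest were those of Got2 (mitochondrial aspartate aminotransferase, 94 nt), Bmi1 (a subunit of Polycomb repressive complex 1, 93 nt) and Ube2o (a ubiquitin-conjugating enzyme, 88 nt). Bmi1 had 25 to 56 reads per library, which came to 30.2 to 52.9 TPM.

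**Figure D4:**
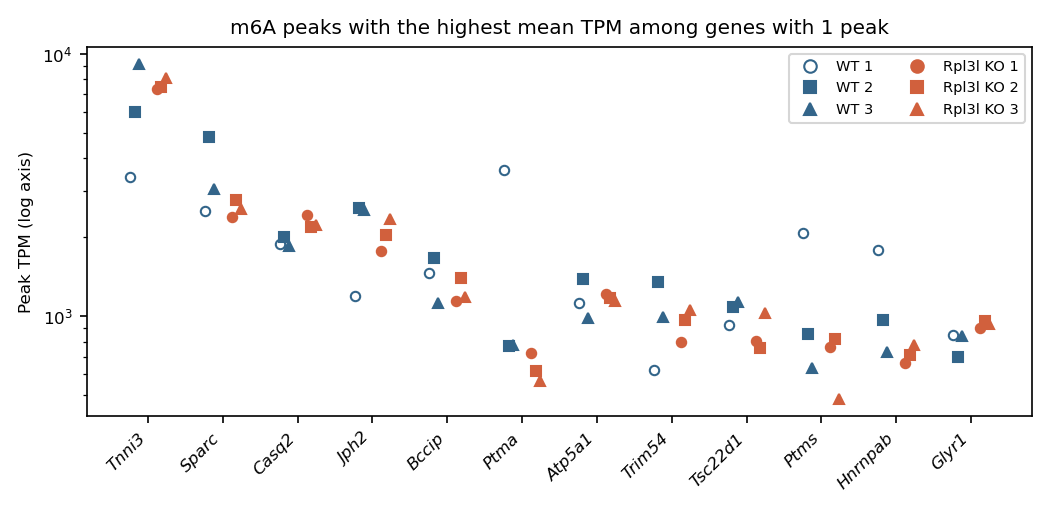
TPM of the 12 members with the highest mean TPM in each of the 6 libraries, on a log axis, with WT in blue (replicate 1 as open circles) and Rpl3l KO in red. For Ptma, Ptms and Hnrnpab WT replicate 1 lies above all other libraries, and for Tnni3, Jph2 and Trim54 it lies below them.

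The member with the highest TPM was that of a sarcomere gene. Tnni3, which encodes the cardiac troponin I that blocks actin at low calcium, had 3384, 5973 and 9155 TPM in WT and 7316, 7497 and 8090 TPM in KO. Its peak is 49 nt wide and reaches 16 nt past the start of exon 6 of 8. The KO libraries lay within the range of the WT libraries. Casq2 (calsequestrin, the calcium store of the sarcoplasmic reticulum) had 1877, 2004 and 1852 TPM in WT and 2440, 2189 and 2221 TPM in KO. All KO libraries lay above all WT libraries, by 0.31 on the log2 scale (SE 0.17, n = 3 per genotype), which did not pass (adjusted p = 0.54, edgeR quasi-likelihood test). Jph2 (junctophilin, which ties that membrane to the T-tubules) had 1195, 2579 and 2532 TPM in WT and 1764, 2045 and 2347 TPM in KO. Sparc, a matricellular protein made by fibroblasts and endothelium, had a 12-nt peak with 2514, 4819 and 3060 TPM in WT and 2379, 2772 and 2565 TPM in KO from 231 to 602 reads. In each of these genes except Casq2 the groups overlapped.

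Trim54 (a muscle ubiquitin ligase at the sarcomere) ranged from 626 to 1354 TPM over the 6 libraries and Atp5a1 (the alpha subunit of ATP synthase) from 986 to 1389 TPM. Bccip (a BRCA2-interacting protein with a role in ribosome assembly) ranged from 1122 to 1660 TPM, Tsc22d1 (a leucine-zipper regulator of transcription) from 754 to 1130.4 TPM and Glyr1 (a nucleosome-binding protein) from 699 to 959 TPM. For Glyr1 all KO libraries lay above all WT libraries, by 0.28 on the log2 scale (SE 0.20), which did not pass (adjusted p = 0.60, edgeR). For Ptma, the acidic nuclear protein prothymosin alpha, WT replicate 1 had 3596 TPM while the other WT libraries had 770.5 and 774 TPM and the KO libraries 724, 618 and 566 TPM. Its log2 fold change of -1.39 (SE 0.52, edgeR adjusted p = 0.51) became -0.22 without that library. Ptms (parathymosin, a relative of prothymosin) and Hnrnpab (a nuclear RNA-binding protein) were likewise highest in WT replicate 1, at 2080.2 and 1783 TPM, against 482 to 853 TPM and 663 to 970.2 TPM in the other 5. The reads were mapped with multiple positions allowed, so reads shared with near-identical copies elsewhere in the genome cannot be assigned, which bears on Ptma and on the ribosomal proteins below.

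No member passed the test between the genotypes. Of the 2338 peaks with a mean count of at least 10, 822 were members, and edgeR called 0 of them and 0 of all peaks at an adjusted p of 0.05 (0.0% called). The smallest adjusted p was 0.51. At an unadjusted p under 0.05 there were 19 members higher (2.31%) and 54 lower (6.57%) in KO, where 4.28% and 5.18% of all peaks tested passed in these directions. Single libraries moved these counts, to 17 higher and 31 lower without WT replicate 1, to 64 and 108 without WT replicate 3 and to 5 and 24 without KO replicate 3. DESeq2 and limma on log2 TPM also called 0 peaks. In 40 members (4.87%) all KO libraries lay above all WT libraries and in 77 (9.37%) below, beside 8.64% and 7.36% of all peaks. The median log2 fold change was -0.10 over the members and -0.02 over all peaks tested (0.01 over the others), and 56.7% of members had a negative value against 51.8% of all peaks. Without WT replicate 1 the median of the members was -0.06. Data were simulated with the depth of these libraries and with 1 spread per peak, the same in every library. The wider scatter of WT replicate 1 was thus not reproduced. In these data edgeR found 68.1% of 182 peaks with a log2 change of 1.5 and 9.29% of 183 with a log2 change of 1. Beside them it called 9 and 4 unchanged peaks. In this setting 2-fold changes would mostly have been missed.

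The share of reads on members lay lower in each KO library than in each WT library. Members held 13.8%, 13.8% and 14.0% of the counts of the table in WT and 12.2%, 12.5% and 13.2% in KO. The means were 13.9% ± 0.12 and 12.6% ± 0.51 (SD, n = 3), and the difference of -1.22 percentage points had p = 0.1 in the exact two-sided permutation test, the smallest p that 3 against 3 allow. The share of summed TPM gave 16.2%, 16.3% and 16.1% in WT and 14.2%, 14.7% and 15.3% in KO. WT replicate 1 did not stand out in this measure, and without it the difference was -1.25 percentage points.

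The members with the smallest p-values were peaks of low to moderate count, and none passed the adjusted threshold. Pygb (the brain form of glycogen phosphorylase, also made in the heart) had 7.91, 3.32 and 16.7 TPM in WT and 48.1, 21.2 and 54.7 TPM in KO, from 1 to 26 reads. Its log2 fold change was 2.29 (SE 0.57, edgeR adjusted p = 0.51) and 2.18 without WT replicate 1. Every KO library lay above every WT library. Prepl (a serine hydrolase of the prolyl endopeptidase family) had 205, 168 and 132 TPM in WT and 328, 353 and 319.8 TPM in KO, a log2 fold change of 1.00 (SE 0.32), again without overlap. Insr (the insulin receptor) had 14.0, 5.87 and 14.8 TPM in WT and 35.8, 21.1 and 31.6 TPM in KO from 2 to 17 reads. Vdac1 (the main channel of the outer mitochondrial membrane) had 95.4, 76.1 and 128 TPM in WT and 161, 180 and 143 TPM in KO. Hjv (hemojuvelin, a co-receptor in iron sensing) had 2.09, 21.04 and 26.5 TPM in WT and 20.0, 58.8 and 129.9 TPM in KO, so that the groups overlapped, and its log2 fold change of 2.52 fell to 1.64 without WT replicate 1.

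In the other direction, Kdm3b (a histone H3 lysine 9 demethylase) had 33.1, 31.0 and 30.0 TPM in WT and 12.7, 9.51 and 12.1 TPM in KO. Its log2 fold change was -1.39 (SE 0.37, edgeR adjusted p = 0.51) from 5 to 35 reads. Trim12a (a mouse TRIM-family protein) had 54.2, 23.9 and 38.7 TPM in WT and 15.6, 5.45 and 10.8 TPM in KO. Iigp1 (an interferon-inducible GTPase) had 62.2, 100.1 and 109.6 TPM in WT and 44.7, 40.0 and 31.7 TPM in KO. Its mRNA stood at a mean of 26.5 CPM in WT and 17.3 CPM in KO (log2 fold change -0.62, SE 0.21), which did not pass the edgeR test (unadjusted p = 0.010, adjusted p = 1.00). For Tti2 (a subunit of the TTT complex, which stabilises kinases such as mTOR) the TPM was 181, 107 and 85.6 in WT and 59.1, 15.5 and 30.8 in KO. Rftn1 (raftlin, a lipid-raft protein) had 85.9, 144 and 75.7 TPM in WT and 45.8, 38.4 and 34.3 TPM in KO. In all 5 genes the groups did not overlap, which adds no support, since they were chosen by p-value. Trim12a and Tti2 had only 2 to 11 reads in the libraries other than WT replicate 1, and with Kdm3b and Insr they fall under the count minimum when that library is left out. Pygb and Insr fall under the count minimum without KO replicate 1 or without KO replicate 3, and Hjv without KO replicate 3.

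**Figure D5:**
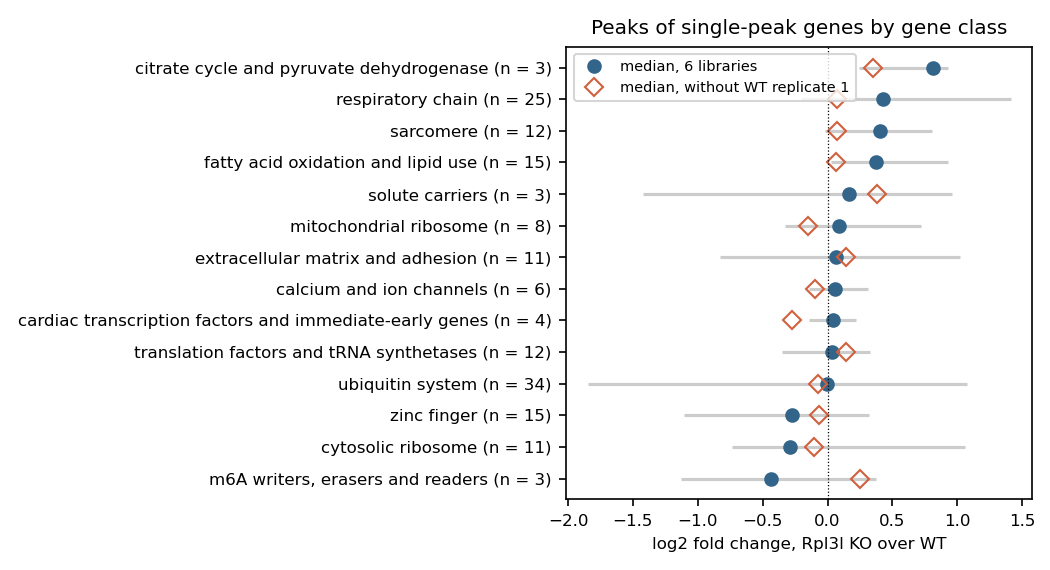
Median log2 fold change (Rpl3l KO over WT) of the members of each gene class with at least 3 peaks tested, with all 6 libraries (filled circles) and without WT replicate 1 (open diamonds). Grey lines span the lowest to the highest peak with 6 libraries, and n is the number of peaks tested. The medians of the respiratory chain, the sarcomere and fatty acid oxidation lie at 0.43, 0.40 and 0.38 with all libraries and at 0.07, 0.07 and 0.06 without WT replicate 1.

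By gene class, the respiratory chain, fatty acid oxidation and the sarcomere had positive medians with all libraries and medians under 0.1 without WT replicate 1. The respiratory chain list, taken by prefix, holds subunits of complexes I to V and the assembly factor Ndufaf4. It had 28 single-peak genes of 42 with a peak (66.7%). Their summed TPM was 3416, 5830 and 6836 in WT and 6047, 6212 and 7014 in KO. Of 25 tested, 23 had a positive log2 fold change, with a median of 0.43, while 51.8% of all peaks tested had a negative one. At an unadjusted p of 0.05, 3 passed, all higher (4.28% of all peaks). Without WT replicate 1 the median was 0.07, and 1 was higher and 1 lower at that p. In that library these peaks were different from the mean of the other 5 by a median of -0.99 on the log2 scale. Cox6a2 (the muscle form of a cytochrome oxidase subunit) had 126, 456 and 1073 TPM in WT and 767, 921 and 1265 TPM in KO, and Cyc1 (cytochrome c1 of complex III) 239, 540 and 579 TPM in WT and 567, 544 and 568 TPM in KO. Cox5b, another subunit of cytochrome oxidase, had 315, 642 and 584 TPM in WT and 445, 399 and 433 TPM in KO.

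Of the genes of fatty acid oxidation and lipid use, 17 of 23 (73.9%) had a single peak. All 15 tested had a positive log2 fold change, with a median of 0.38 and with 2 past an unadjusted p of 0.05 (4.28% of all peaks). Without WT replicate 1 the median was 0.06 and 0 passed. Fabp3 (the fatty acid carrier of the heart) had 295, 880.5 and 1171 TPM in WT and 761, 836 and 1129.9 TPM in KO. Hadha (the alpha subunit of the trifunctional protein) had 98.9, 205 and 301 TPM in WT and 249, 163 and 318 TPM in KO. In both genes the KO libraries lay within the range of the WT libraries or close to its upper end. Of the citrate cycle genes, 3 of 12 had a single peak, among them Idh3b (a subunit of isocitrate dehydrogenase) with 240 to 360 TPM. All 3 had a positive log2 fold change, with a median of 0.81 with all libraries and of 0.35 without WT replicate 1, and 0 passed an unadjusted p of 0.05.

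Sarcomere genes mostly had several peaks. Of 43 with a peak, 15 (34.9%) had just 1, where the share over all genes was 67.0%. Of 12 tested, 11 had a positive log2 fold change, the median was 0.40 with and 0.07 without WT replicate 1, and 0 passed an unadjusted p of 0.05. Lmod2 (leiomodin, which lengthens thin filaments) had 157, 444 and 764 TPM in WT and 424, 401 and 640 TPM in KO. Genes of calcium handling and ion channels had 1 peak in 11 of 23 cases, and those of the extracellular matrix and adhesion in 18 of 39. In the calcium and channel genes the median log2 fold change was 0.06 over 6 tested, and it turned to -0.09 without WT replicate 1. In the matrix genes it was 0.06 over 11 and 0.14 without that library.

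Ribosomal proteins stood at the other end, since 14 of the 15 genes of the cytosolic ribosome list with a peak had a single one (93.3%), Rpl4 being the exception with 2. The list was taken by prefix and includes Rpl7l1, a relative of Rpl7. None of the 14 held GGAC in the part of the peak in its exon or in the 50 nt of transcript on either side. The median log2 fold change was -0.29 over 11 tested and -0.10 without WT replicate 1. Rpl13a (on a peak that also names Gm45713) had 700, 621 and 531 TPM in WT and 466, 485 and 512 TPM in KO. Rps3a1 had 209 to 321 TPM over the 6 libraries. Genes of the mitochondrial ribosome had a single peak in 10 of 12 cases, with Mrpl51 highest at 142 to 232 TPM. Translation factors and tRNA synthetases had one in 22 of 37, among them Eef2 (the elongation factor that moves the ribosome along the mRNA) with 202, 248 and 364 TPM in WT and 270, 302 and 312 TPM in KO.

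Zinc finger genes had a single peak in 26 of 39 cases. These peaks lay in long exons (median 2061 nt), 19 of 26 were wholly coding, and 6 of the 20 that lay wholly in exons held GGAC. Of 15 tested, 12 had a negative log2 fold change and 1 was lower at an unadjusted p of 0.05, or 0 without WT replicate 1. The median was -0.28 with and -0.06 without WT replicate 1. Zfp830, whose sequence with a pair of GGAC is shown above, had 267, 184 and 128 TPM in WT and 138, 131 and 92.1 TPM in KO. Zfp651 had 132 to 196 TPM and Zfp445 83.8 to 139 TPM over the 6 libraries. Of the ubiquitin system 50 of 73 genes had a single peak, with 17 of 34 tested on either side of 0 and with 1 higher and 5 lower at an unadjusted p of 0.05 (4.28% and 5.18% of all peaks), or 0 and 2 without WT replicate 1. In this class Trim26 had 293, 231 and 225 TPM in WT and 126, 156 and 146 TPM in KO (log2 fold change -0.76, SE 0.24, edgeR adjusted p = 0.51), while Trim44 stood at 1208 TPM in WT replicate 1 and at 459 to 566 TPM in the other 5. Of the m6A machinery 3 of 8 genes with a peak had a single one. They were Virma (a scaffold of the writer complex), with 490, 171 and 79.5 TPM in WT and 247, 166 and 154 TPM in KO, Fmr1 (an RNA-binding protein that can read m6A) and the reader gene Ythdf1. Of the solute carriers 6 of 13 had one, and the 4 cardiac transcription factors and immediate-early genes with a peak (Myocd, Nfe2l2, Jun and Tbx5) all had a single one, at 30.1 to 139 TPM.

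By place and level, wholly coding members had a median log2 fold change of -0.22 (34 lower and 6 higher at an unadjusted p of 0.05 of 381 tested), and members that crossed the start of their exon one of 0.01 (17 lower and 11 higher of 368). Over all peaks tested 5.18% were lower and 4.28% higher at that p. Without WT replicate 1 the medians were -0.12 and 0.01, with 16 lower and 4 higher of 339 wholly coding members and 12 lower and 13 higher of 341 that crossed. By quartile of mean TPM the medians were -0.12, -0.02, -0.12 and -0.13 from the lowest to the highest, and by quartile of width -0.15, -0.13, -0.04 and -0.08. Without WT replicate 1 they were 0.01, 0.02, -0.07 and -0.07 by TPM, where the lower 2 turned sign, and -0.07, -0.09, -0.02 and -0.06 by width. The lowest quartile by TPM had only 13 of its 312 members tested.

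Peak level followed the mRNA level only loosely. Over 326 members on the plus strand that reached the count minimum of 10 in both assays, peak TPM and RNA-seq RPKM had a Spearman rho of 0.34 across genes, beside 0.38 for 413 other peaks. The median ratio of peak TPM to RPKM was 5.61 (quartiles 1.64 and 15.7) in members and 11.6 in the others. The highest ratios were those of Fzd4 (353), Mier1 (312), Ubn1 (173), Slf2 (126) and Spaca6 (123), at RNA-seq levels of 0.698 to 2.93 RPKM. Mier1, a transcriptional regulator with ELM2 and SANT domains, had a 13-nt peak with 1919 TPM in WT replicate 1 and 418 to 602 TPM in the others. Ubn1, a subunit of the HIRA histone chaperone complex, had 293, 376 and 524 TPM in WT and 583, 648 and 619 TPM in KO. The groups did not overlap, as in 8.64% of all peaks in this direction. Its log2 fold change of 0.70 (SE 0.25) did not pass (adjusted p = 0.51, edgeR). The lowest ratios were those of Ndufa3 (0.0175), Ech1 (0.0410), Ndufb9 (0.0644), Rpl22 (0.105) and Fabp3 (0.122), at 386 to 6922 RPKM. Ndufa3 and Ndufb9 encode subunits of complex I and Ech1 an enzyme of beta-oxidation. The strand of the gene, the peak width and the mRNA level enter this ratio, and their parts were not tested.

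No mRNA of a single-peak gene passed the test in RNA-seq, and few did in Ribo-seq. In RNA-seq, 2 of 15394 transcripts were called (0.013%), and none of the 559 single-peak genes tested (DESeq2 also called none). At an unadjusted p under 0.05 in edgeR, 5 of these genes were higher and 3 lower. Over all transcripts 352 of 15394 (2.29%) passed that p in either direction. The median log2 fold change of single-peak genes was 0.00. Over the 326 members with both values, the log2 fold changes of peak and mRNA had a Spearman rho of -0.01. In Ribo-seq, 97 of 12695 transcripts were called (0.764%), and 4 of 549 single-peak genes, a share near that of all transcripts. These 4 are named because they are few, after their values were seen.

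Larp1b (a La-related RNA-binding protein) had 126, 95.0, 81.1 and 120.1 CPM in WT and 241, 152, 239.7 and 217 CPM in KO, a log2 fold change of 1.00 (SE 0.16, edgeR adjusted p = 0.015). Paip2 (an inhibitor of poly(A)-binding protein) had 169.6, 163, 186 and 185 CPM in WT and 134, 110.3, 119 and 129.6 CPM in KO, a log2 fold change of -0.51 (SE 0.09, edgeR adjusted p = 0.022). Gpc1 (glypican, a cell-surface heparan sulfate proteoglycan) rose by 0.41 on the log2 scale (edgeR adjusted p = 0.024) and Trim72 (a muscle membrane repair protein) by 0.39 (edgeR adjusted p = 0.037). In all 4 the groups did not overlap, but the genes were chosen because they were called, so this adds no support. The share of all Ribo-seq transcripts without overlap was not counted. None of their m6A peaks passed the threshold, with log2 fold changes of -0.13, 0.80, 0.80 and 0.42 in the same order and adjusted p of 0.52 or more in edgeR. When 1 Ribo-seq library was left out in turn, the call of Larp1b held in 7 of 8 fits, that of Paip2 in 4, that of Gpc1 in 2 and that of Trim72 in 0.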

How the data were processed

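m6A-seq of 6 hearts was analysed beside RNA-seq and Ribo-seq of 8 hearts each. The authors deposited a read count and a TPM value per peak: reads were mapped with STAR (GRCm38.p6 transcriptome and mm10, multiple mappings allowed), peaks called with HOMER and counted with bedtools over coding peaks common to the 3 replicates of each genotype. For RNA-seq and Ribo-seq the authors deposited counts per transcript (cutadapt, STAR and featureCounts, per the labels). Each transcript is on 2 identical lines and 1 was used, and the table holds plus-strand genes. Program versions are not given in the sources used here.

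Counts were fitted by the quasi-likelihood test of edgeR 4.0.16 (TMM, mean count of at least 10, adjusted p under 0.05, Benjamini-Hochberg) over all peaks or transcripts, and the transcript with most counts stood for each gene. Alternatives were limma 3.58.1, DESeq2 1.42.0, other filters, scaling, member definitions, a replicate block and leaving out each library. The replicate is 1 mouse. Peak starts were read as counted from 0, with an error of 1 nt possible. Peaks were placed on GENCODE M21. Intervals and floors cover counting error only, and depth is the table total per library. Members and gene lists were chosen with earlier results of these data known. The genes named were Rpl3l if present, members past the threshold or else the 5 smallest p in each direction, the 12 highest in TPM, up to 4 per class by count, the 3 widest and narrowest, and the 5 highest and lowest in TPM per RNA-seq level. Fits were tested on simulated data.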

Additional observations from a re-analysis of the deposited data

Results flagged for a closer look

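In groups of 4 hearts, a value was picked out where its gap to the nearest other value was a large part of the range of the group, a rule that chance meets in about 1 in 20 groups. Of 30 groups of RNA-seq or Ribo-seq values behind named members, 5 were picked out. In RNA-seq, KO replicate 2 was apart from the other KO hearts for Fabp3 (6968 CPM), Ndufb9 (1759 CPM) and Rpl22 (228.9 CPM), and WT replicate 3 was apart from the other WT hearts for Mier1 (13.25 CPM). In Ribo-seq, WT replicate 2 was apart for Gpc1 (407 CPM).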

How the results depend on the processing

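The count of m6A peaks called was 0 for all peaks and for single-peak genes in each fit except that with the replicate block, which called 8 peaks, 2 of them of single-peak genes (Cox6a2 and Pygb). The deviations of same-numbered WT and KO libraries correlated at 0.27, 0.02 and 0.22, so the numbers were not taken as pairs. Scaling by library totals changed the members past an unadjusted p of 0.05 from 19 higher and 54 lower to 11 higher and 76 lower. The median log2 fold change of members was -0.049 with a total of at least 10 counts, -0.18 with a mean count of at least 50, -0.19 with library totals, -0.15 with DESeq2, -0.078 with the block and -0.11 to -0.062 leaving out 1 library, the last without WT replicate 1. The level difference between members and other peaks was -0.90 to -0.86 leaving out 1 library, where 5 libraries cannot give an exact p under 0.0625. The difference in the share of counts ranged from -1.50 to -0.99 percentage points leaving out 1 library. In Ribo-seq the count for all transcripts was 63 with a total of at least 10 counts, 191 with DESeq2 and 16 (without WT replicate 3) to 60 leaving out 1 library, and that of single-peak genes 7 with DESeq2 and 0 (without WT replicate 3) to 3 leaving out 1 library. The cause was not tested. The 10 fold changes named for their p-values kept their direction in all 112 alternative fits that tested them, while 18 further combinations had too few counts to be tested. These fits reuse the libraries by which the peaks were chosen, so the kept directions add no support. With the block RNA-seq and Ribo-seq called 2 and 109 transcripts in all, and 0 and 4 of single-peak genes. Depth limits the 423 members with a mean count under 10.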
